A study of Mus musculus with 29 samples.

Results

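Genes for the synthesis of cholesterol and fatty acids were followed across RNA-seq libraries of the mouse small intestine. They comprised 31 of the 47357 genes common to the 3 sets of count files, chosen by symbol, and all 31 had counts high enough to be tested in each comparison. Of these, 8 encode enzymes of the mevalonate arm (Acat2, Hmgcs1, Mvk, Pmvk, Mvd, Idi1, Fdps, Fdft1) and 11 encode enzymes that turn squalene into cholesterol (Sqle, Lss, Cyp51, Tm7sf2, Lbr, Msmo1, Nsdhl, Hsd17b7, Ebp, Sc5d, Dhcr7). A further 6 are regulators of the pathway and a sterol carrier (Srebf1, Srebf2, Scap, Insig1, Insig2, Stard4), and 6 belong to fatty acid synthesis and activation (Acaca, Fasn, Elovl6, Scd1, Scd2, Acsl3).

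The study deleted H2B, read here as Rnaseh2b from the series title, which names ribonucleotide excision repair. The RNase H2 complex to which its product belongs excises single ribonucleotides built into DNA. In H2BdIEC mice the gene was deleted in intestinal epithelial cells, and in H2B/p53dIEC mice (written H2Bp53dIEC here) p53, the tumor suppressor encoded by Trp53, was deleted there as well. The Cre driver is not given in the labels. All mice were C57BL/6, and there were 29 libraries in 8 groups. Epithelial crypts came from mice of 52 weeks, with 4 libraries of H2B flox/flox mice as controls and 4 of H2BdIEC mice. Tissue was taken as 4 tumors and 4 pieces of adjacent normal tissue from the same H2Bp53dIEC mice (1319, 1322, 1323 and 1349), and as 4 pieces from mice labelled H2B/p53flox/flox (1315, 1316, 1320 and 1321), whose tissue also carries the label of adjacent normal tissue. Intestinal organoids, which are self-organising epithelial cultures, were sequenced as 3 control, 3 H2BdIEC and 3 H2Bp53dIEC libraries. The organoid controls are titled WT, their genotype label reads H2B/p53flox/flox and the design text gives H2Bfl/fl. No age is given for tissue or organoids.

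Cholesterol is built from acetyl-CoA through mevalonate and squalene, and fatty acids are built from the same precursor through malonyl-CoA. Both routes are switched on by the SREBP transcription factors, the products of Srebf1 and Srebf2. When sterols are scarce, SCAP escorts SREBP out of the endoplasmic reticulum for cleavage, and when sterols are plentiful INSIG proteins hold it back. The intestinal epithelium takes up dietary and biliary sterols and also makes its own, so its cells can draw on both sources.

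SREBP binds short sequences close to the start of its target genes, usually beside binding sites of NF-Y (CCAAT) and Sp1 (GGGCGG). RefSeq promoter windows (GRCm38.p6) were matched for 25 of the 31 genes, and 5 motifs were searched on both strands in the 250 bases before the start. The sterol regulatory element core CACCCCAC was found in 2 of the 25 (8%), Acat2 and Hmgcs1, and in 2.98% of 27025 genes with a window. The longer form TCACNCCAC, which can overlap the core, was found in Hmgcs1, which is 4% of the 25, and in 1.22% of all genes. CCAAT was present in 21 of 25 (84%) against 37.5% of all genes, GGGCGG in 21 (84%) against 35.4%, and the E-box CACGTG in 5 (20%) against 6.86%. These are letter matches and not shown binding sites. No window was matched for Fdps, Fdft1, Sqle, Stard4, Scd1 and Scd2.

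Stretches of up to 200 bases before the RefSeq start are shown for the 2 genes with the sterol regulatory element core (Hmgcs1 and Acat2). They are also shown for 3 genes whose RNA was higher in H2Bp53dIEC organoids (Nsdhl, Hsd17b7 and Fasn), and for Insig2, whose RNA was lower there. Each reads 5′ to 3′ on the strand of the gene, and capitals mark the sterol regulatory element, in either form, and CCAAT, on either strand. The stretches of Acat2 (178 bases) and Hsd17b7 (164 bases) end short of the RefSeq start, where the gene begins in the GENCODE annotation.
Hmgcs1, chr13:119690151-119690350 (+ strand): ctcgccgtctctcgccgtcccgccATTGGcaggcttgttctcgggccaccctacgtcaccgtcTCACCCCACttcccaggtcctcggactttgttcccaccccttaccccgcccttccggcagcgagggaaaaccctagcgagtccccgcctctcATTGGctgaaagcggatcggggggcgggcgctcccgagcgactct
Acat2, chr17:12960748-12960925 (- strand): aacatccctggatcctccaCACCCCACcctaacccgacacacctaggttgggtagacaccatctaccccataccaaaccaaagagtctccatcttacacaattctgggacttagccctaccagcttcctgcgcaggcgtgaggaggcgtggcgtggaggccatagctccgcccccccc
Nsdhl, chrX:72918321-72918520 (+ strand): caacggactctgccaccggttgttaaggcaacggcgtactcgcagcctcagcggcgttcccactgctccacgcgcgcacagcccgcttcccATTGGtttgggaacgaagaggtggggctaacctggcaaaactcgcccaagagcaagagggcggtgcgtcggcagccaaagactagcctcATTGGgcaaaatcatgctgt
Hsd17b7, chr1:169969242-169969405 (- strand): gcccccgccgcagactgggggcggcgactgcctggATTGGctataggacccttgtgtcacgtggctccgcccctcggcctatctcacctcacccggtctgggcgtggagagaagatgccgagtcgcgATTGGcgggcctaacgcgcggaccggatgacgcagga
Fasn, chr11:120824548-120824747 (- strand): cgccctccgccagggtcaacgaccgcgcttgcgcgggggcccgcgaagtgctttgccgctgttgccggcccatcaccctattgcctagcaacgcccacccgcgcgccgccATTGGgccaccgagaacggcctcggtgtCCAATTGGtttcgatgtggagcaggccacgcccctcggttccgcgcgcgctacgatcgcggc
Insig2, chr1:121332590-121332789 (- strand): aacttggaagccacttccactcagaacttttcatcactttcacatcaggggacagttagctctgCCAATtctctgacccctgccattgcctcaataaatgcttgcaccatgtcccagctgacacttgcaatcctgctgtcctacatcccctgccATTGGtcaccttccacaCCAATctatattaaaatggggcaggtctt
The stretch of Hmgcs1 carries the sterol element between CCAAT matches, both of which stand on the opposite strand as ATTGG. Insig2 has CCAAT on both strands and no sterol element in the letters searched.

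Total gene counts were 15545059 to 25913155 per crypt library, 5774771 to 21386586 per organoid library and 21884287 to 41504298 per tissue library, apart from the control tissue of mouse 1320, which had 401365. Rnaseh2b, checked first, was at 2.505 ± 0.274 CPM (counts scaled by library total and TMM factor; mean ± SD over 4 libraries) in H2BdIEC crypts and 10.61 ± 4.02 in control crypts. In tissue it was at 4.39 ± 1.61 in tumors, 4.12 ± 1.23 beside them and 16.1 ± 5.34 in controls, and in organoids at 16.6 ± 1.75 in controls, 5.83 ± 1.08 in H2BdIEC and 1.65 ± 0.539 in H2Bp53dIEC (3 libraries each). Trp53 was at 107 ± 8.54, 95.7 ± 16.2 and 11.1 ± 0.956 CPM in the same organoid groups. In tissue it was at 19.8 ± 7.69 CPM in tumors, 21.3 ± 6.07 beside them and 44.8 ± 4.31 in controls. The edgeR test gave an adjusted p of 0.00342 for tumors against controls and 0.0777 for adjacent tissue against controls. Libraries 1320 of the control tissue and 1323 of the adjacent tissue stood apart from their groups in several genes described here. For members whose call changed when both were left out, values without one or both of them are given as well.

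The levels of these genes were spread widely within each material. On a scale of CPM per kilobase of exon, set over all 29 libraries, control organoids held most RNA of Scd2 (786 ± 27.6, SD, n = 3), followed by Scd1 (244 ± 17.1). Both encode stearoyl-CoA desaturases, which make monounsaturated fatty acids. Next on this scale came Hmgcs1 (128 ± 1.67), the HMG-CoA synthase, and Insig1 (127 ± 10.3), which did not differ beyond their spread, and then Cyp51 (104 ± 4.98). In control crypts the order was another one, led by Hmgcs1 at 55.3 ± 6.74 (SD, n = 4) and Stard4 at 47.5 ± 4.32, whose ranges overlapped, with Scd1 lowest at 1.68 CPM per kilobase. Control tissue was also led by Hmgcs1 (156 ± 19.6), while its second place, Scd1 at 102 ± 140, was set by library 1320. Materials were sequenced and counted as separate sets, so differences in level between them were not tested.

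Differences were called at an adjusted p under 0.05 in edgeR's quasi-likelihood test, fitted over all genes of a set, and "rose" and "fell" are used for called genes only. The heat map of log2 fold changes gives all members in all 7 comparisons between groups. Members were chosen with earlier results of these data known, so counts of called members beside the shares of all genes are descriptive and not a test. No label says that organoid libraries came from different mice; organoid p-values then measure only the spread between libraries, which may be technical. In bulk samples, fewer cells of a type and less RNA per cell cannot be told apart.

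**Figure D1:**
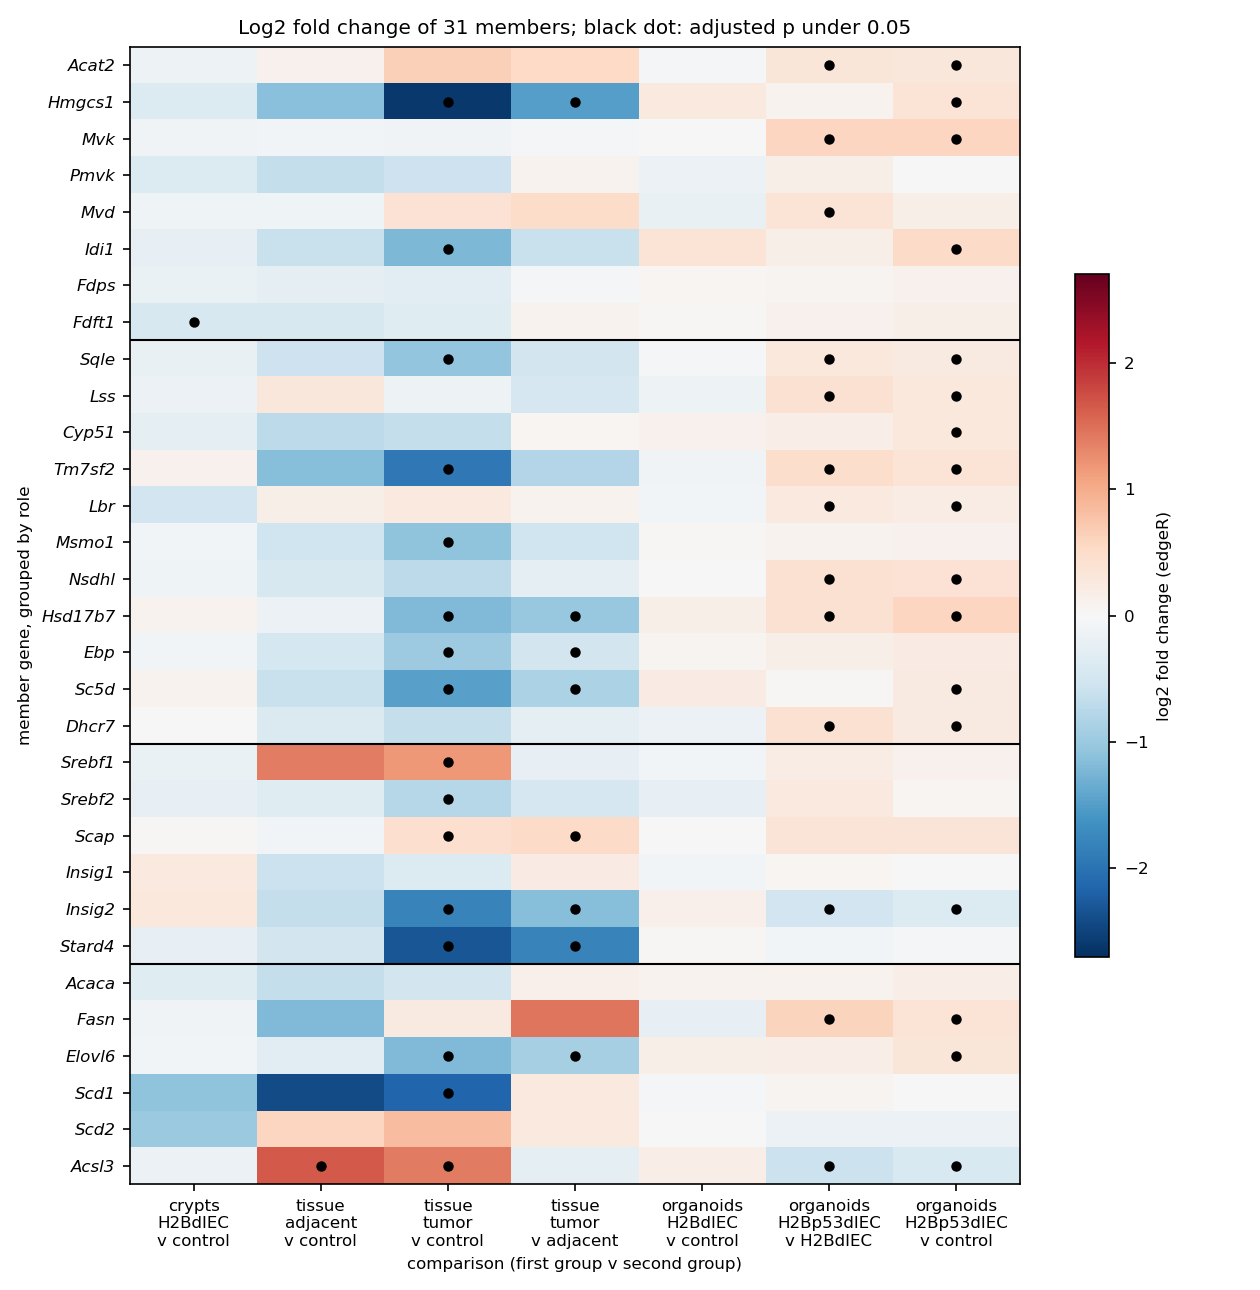
Log2 fold change (edgeR) of each of the 31 genes (rows, grouped by role) in each comparison (columns, first group v second group). Black dots mark an adjusted p under 0.05. H2Bp53dIEC organoids hold 11 and 15 risen members in the last 2 columns, where 13.9% and 16.7% of genes tested rose. They hold 2 and 2 fallen members there, where 15.4% and 16.6% of genes fell. Tumors hold 13 fallen and 3 risen members against control tissue, where 26.1% of genes tested fell and 28.6% rose.

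In H2Bp53dIEC organoids, genes of cholesterol synthesis were higher than in H2BdIEC organoids. Of the 31 genes, 11 rose and 2 fell, where 13.9% of the 15701 genes tested rose and 15.4% fell. The sterol enzymes made up most of this: all 8 genes of the mevalonate arm had a log2 fold change above 0 and 3 of them rose, and all 11 genes from squalene to cholesterol were above 0 and 7 of them rose (Sqle, Lss, Tm7sf2, Lbr, Nsdhl, Hsd17b7 and Dhcr7). The median log2 fold change was 0.29 in this second group and 0.17 over the 31 genes, beside 0.004 over all genes tested, so the changes were small. Of the regulators 1 of 6 was called, Insig2, which fell, and of the fatty acid genes Fasn rose and Acsl3 fell. The 2 groups differed in Rnaseh2b RNA as well as in Trp53. Rnaseh2b was lower in H2Bp53dIEC than in H2BdIEC organoids (log2 fold change -1.82 ± 0.23, adjusted p = 0.000147), and H2BdIEC organoids kept 0.36 times the control level. The part of this difference in the result was not tested.

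The mevalonate arm was led by Mvk, the kinase that phosphorylates mevalonate. It was at 58.1, 62.5 and 55.7 CPM in the H2Bp53dIEC libraries 1 to 3 and at 32.0, 41.6 and 42.0 in the H2BdIEC libraries A to C. Every double-deleted library was higher than every H2BdIEC library, and the log2 fold change was 0.59 ± 0.10 (SE; adjusted p = 0.00136). Acat2, which joins acetyl-CoA units at the head of the pathway, rose by 0.33 (adjusted p = 0.0061), and Mvd, which makes isopentenyl diphosphate, by 0.38 (adjusted p = 0.0344).

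Past squalene, Nsdhl, which helps remove methyl groups from the sterol ring, was at 161.7, 160.5 and 157.0 CPM against 116.3, 123.9 and 120.4 in H2BdIEC. Lss, which closes squalene epoxide to lanosterol, was at 367.5, 372.1 and 361.6 CPM against 249.0, 287.8 and 286.4. Hsd17b7, which acts with Nsdhl in the same demethylation, was at 99.3, 106.0 and 105.9 CPM against 82.2, 79.2 and 73.4. None of these 3 genes had an overlap between the groups. Their log2 fold changes were alike, at 0.41 ± 0.06 for Nsdhl (adjusted p = 0.000676), 0.42 ± 0.07 for Lss (adjusted p = 0.00125) and 0.41 ± 0.07 for Hsd17b7 (adjusted p = 0.00142). Dhcr7, the enzyme of the last step of cholesterol synthesis, rose by 0.41 (adjusted p = 0.00309) and Sqle, the squalene epoxidase, by 0.29 (adjusted p = 0.00593). Cyp51, the lanosterol demethylase, was at 0.18 ± 0.06 and missed the threshold (adjusted p = 0.0546).

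Among the fatty acid genes, Fasn, the fatty acid synthase, was at 749.2, 722.3 and 770.3 CPM in double-deleted organoids and at 419.4, 534.0 and 520.7 in H2BdIEC organoids. Its mean was 1.52-fold higher and the groups did not overlap (log2 fold change 0.60 ± 0.09, adjusted p = 0.000625). Acsl3, which activates long-chain fatty acids and serves lipid droplets, went the other way, at 139.1, 141.1 and 148.9 CPM against 246.6, 203.2 and 197.4. All 3 double-deleted libraries were lower, with a log2 fold change of -0.59 ± 0.08 (adjusted p = 0.000339). Acaca, Elovl6, Scd1 and Scd2 were not called.

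The SREBP genes themselves were not called. Srebf1, the factor tied most to fatty acid synthesis, was at 263.3, 256.6 and 240.1 CPM against 163.3, 237.3 and 257.7, with overlapping groups (0.20 ± 0.13, adjusted p = 0.27). Srebf2, the factor tied most to sterols, was at 449.4, 439.4 and 436.0 CPM against 296.2, 401.2 and 403.4 and did not overlap, but did not pass the test (0.26 ± 0.10, adjusted p = 0.0706). For both factors the lowest value was H2BdIEC library A. Insig1, itself a known SREBP target, was at 454.6, 479.9 and 464.6 CPM against 455.1, 452.7 and 432.4, with overlapping groups (0.06 ± 0.07, adjusted p = 0.535). Insig2, its paralog, was at 27.2, 29.6 and 31.9 CPM against 50.8, 40.5 and 37.7, lower in every double-deleted library (-0.52 ± 0.11, adjusted p = 0.00349).

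Against control organoids the double-deleted organoids had 15 members risen and 2 fallen, where 16.7% of genes tested rose and 16.6% fell. This comparison shares the H2Bp53dIEC libraries with the one above, so the 2 are not independent. From squalene to cholesterol 9 of 11 genes rose, in the mevalonate arm 4 of 8 (Acat2, Hmgcs1, Mvk and Idi1), and among fatty acid genes Fasn and Elovl6. The median log2 fold change was 0.22 over the 31 genes and -0.004 over all genes tested. The count of risen members was 8 without control library B, where 1874 of 15979 genes rose. It was 9 without H2Bp53dIEC library 2, where 1834 of 15941 genes rose. Hsd17b7, Nsdhl, Mvk, Idi1, Cyp51, Hmgcs1, Fasn and Acsl3 were called under each alternative processing tried.

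The smallest p belonged to Hsd17b7, at 65.3, 70.3 and 73.8 CPM in control libraries A to C, all below the double-deleted values (0.57 ± 0.07, adjusted p = 9.75e-05). Nsdhl was at 121.9, 116.1 and 128.2 CPM in controls (0.39 ± 0.06, adjusted p = 0.000622) and Mvk at 38.5, 36.4 and 42.8 (0.58 ± 0.10, adjusted p = 0.000864). Control and H2BdIEC libraries overlapped for Nsdhl and Mvk, with the double-deleted libraries above both. Idi1, the isomerase that supplies dimethylallyl diphosphate, was at 16.4, 18.8 and 21.1 CPM against 13.6, 12.8 and 12.7 in controls (0.53 ± 0.11, adjusted p = 0.00248). Cyp51 was at 647.2, 686.9 and 686.5 CPM against 549.8, 523.8 and 576.9 (0.29 ± 0.06, adjusted p = 0.00435). In both genes each double-deleted library was above each control library.

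Hmgcs1 rose by 0.36 ± 0.08 on the log2 scale (adjusted p = 0.0052), from 722.2, 692.0 and 701.0 CPM to 900.8, 899.4 and 921.3, without overlap. Fasn was at 567.8, 535.0 and 628.2 CPM in controls, below all double-deleted libraries (0.37 ± 0.09, adjusted p = 0.00864). Acsl3 was at 185.0, 196.8 and 190.8 CPM in controls and fell in the double-deleted organoids (-0.42 ± 0.08, adjusted p = 0.00233). Insig2, at 37.1, 38.6 and 39.2 CPM in controls, fell too (-0.38 ± 0.10, adjusted p = 0.0151). Srebf1 controls were at 230.2, 221.4 and 249.1 CPM, Srebf2 at 411.3, 416.7 and 453.7, and Insig1 at 429.9, 486.9 and 491.4. For these 3 regulators control and double-deleted libraries overlapped, and the adjusted p was 0.514, 0.752 and 0.931 in that order.

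**Figure D2:**
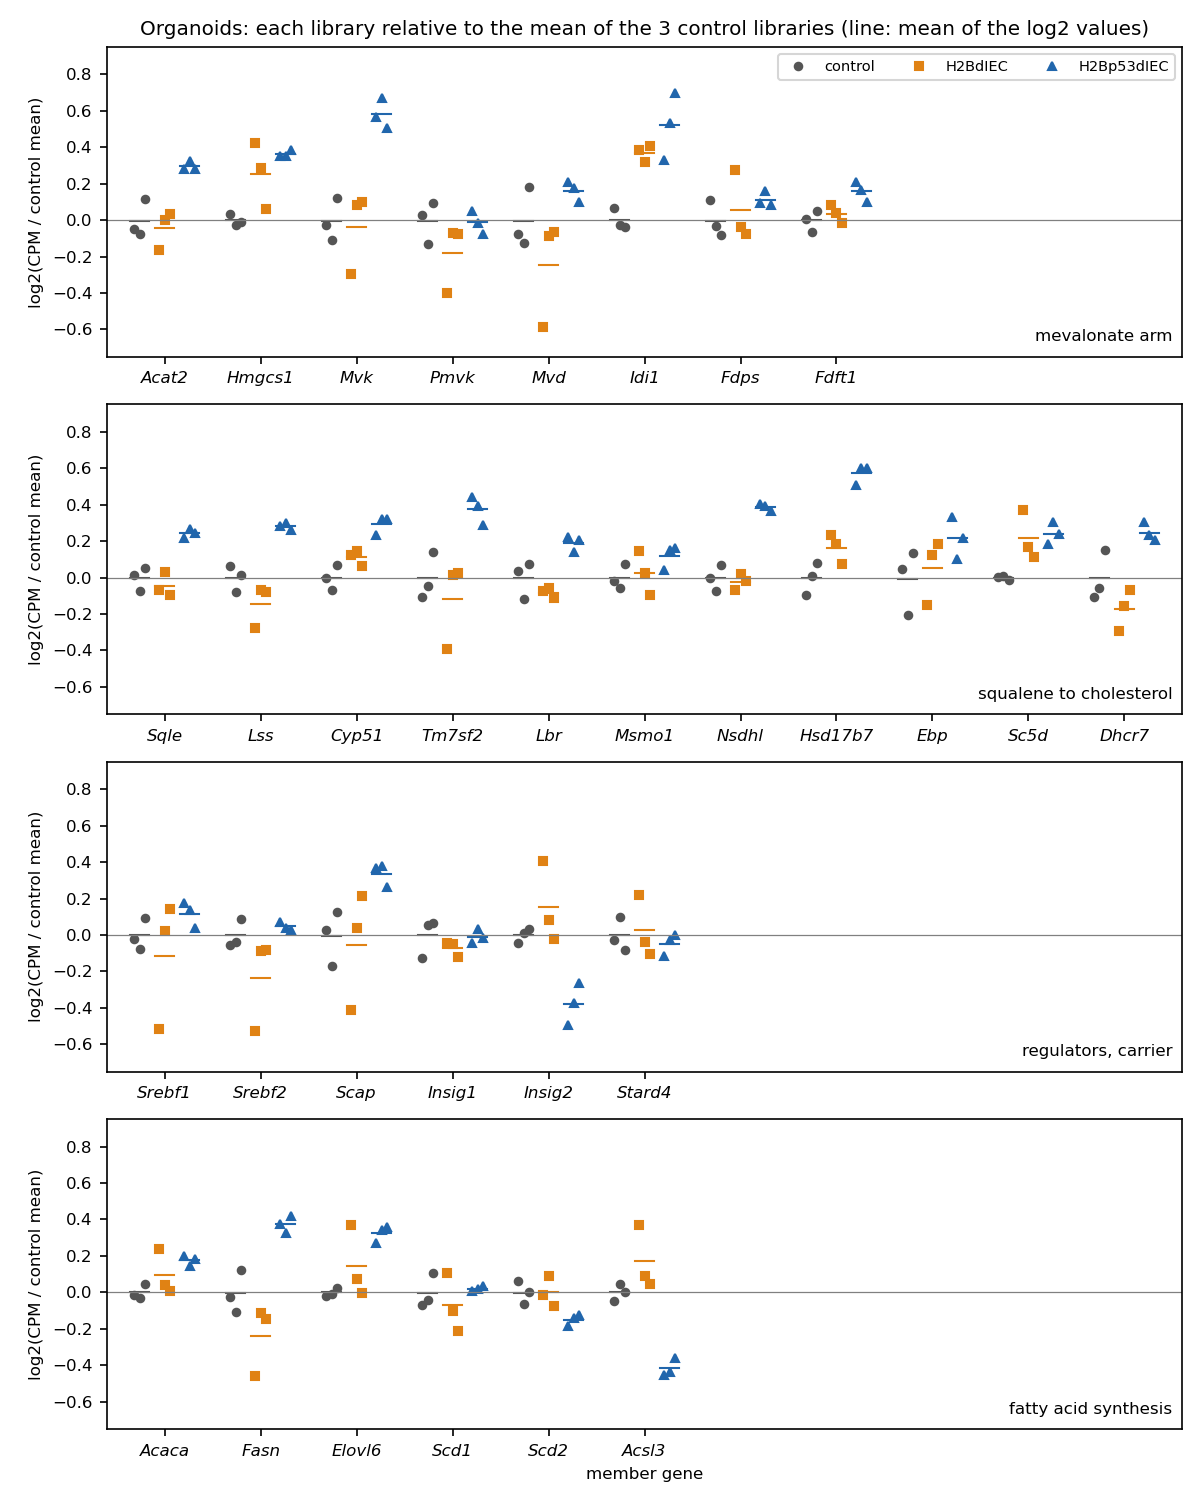
Each organoid library (point) as log2 of its CPM over the mean CPM of the 3 control libraries, for each gene by role, where short lines are the mean of the log2 values of a group. H2Bp53dIEC triangles lie above the H2BdIEC squares and the control circles for Nsdhl, Hsd17b7, Mvk and Fasn, and below both for Insig2 and Acsl3.

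Other changes went with the double deletion. The summed level of 6 stem cell markers was 2303 to 2361 CPM in H2Bp53dIEC, 1378 to 1508 in H2BdIEC and 1423 to 1649 in control organoids, and that of 10 proliferation genes was 2366 to 2417, 1928 to 2313 and 2052 to 2181.6. Sums of 6 fibroblast markers stayed between 0.246 and 0.710 CPM in all organoids. H2BdIEC library A, the shallowest with 5774771 counts, had an enterocyte sum of 6259 CPM against 3732 to 3781 in B and C. Without library A, 15 members rose and 3 fell against H2BdIEC, where 2667 of 16001 genes rose and 2816 fell. Against controls 19 members rose and 3 fell, where 3594 of 16001 genes rose and 3709 fell. Calls over all genes were thus also more numerous than with library A. The H2Bp53dIEC libraries carry titles of another style and it is not stated whether the cultures were grown together, so genotype and culture cannot be told apart. The part of these measures in the result was not tested.

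Of 38 other lipid genes, 36 were tested, and 8 rose and 5 fell in double-deleted against H2BdIEC organoids, beside 13.9% and 15.4% of all genes tested. Acly, which makes cytosolic acetyl-CoA, was at 601 ± 13.0 against 414 ± 6.43 CPM (0.54 ± 0.06, adjusted p = 5.5e-05). Abcg5, a subunit of a sterol export pump, was at 77.0 ± 2.67 against 128 ± 9.26 CPM (-0.73 ± 0.08, adjusted p = 3.33e-05). Tmem97, a sterol-responsive membrane protein, rose by 0.47 (adjusted p = 0.00055) and Fads1, a fatty acid desaturase, by 0.45 (adjusted p = 0.000608). Against control organoids 5 of the 36 rose and 7 fell, beside 16.7% and 16.6% of all genes tested. Acly was at 0.29 ± 0.06 (adjusted p = 0.00239) and Abcg5 at -0.39 ± 0.07 (adjusted p = 0.0016) there. Acsl4, an acyl-CoA synthetase for polyunsaturated fatty acids, was at 0.56 ± 0.11 (adjusted p = 0.00271) and Fads2, the partner desaturase of Fads1, at 0.45 ± 0.09 (adjusted p = 0.00279) in that comparison.

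Deletion of Rnaseh2b alone left no member called in organoids: 0 of 31 rose and 0 fell in edgeR, where 2.08% of genes tested rose and 1.97% fell. At an unadjusted p under 0.05 there were 4 higher and 1 lower, beside 9.62% and 9.99% of all genes, and DESeq2 also called 0 and 0, beside 2.7% and 2.75%. Log2 fold changes were above 0 for 15 genes and below 0 for 16. The nearest to a call were Idi1 at 17.0, 16.3 and 17.3 CPM against 13.6, 12.8 and 12.7 (0.37 ± 0.11, adjusted p = 0.0896) and Hmgcs1 at 944.1, 859.7 and 734.9 against 722.2, 692.0 and 701.0 (0.26 ± 0.08, adjusted p = 0.107). In both, the H2BdIEC libraries lay above the controls. Fasn was lower in all 3 H2BdIEC libraries (-0.23 ± 0.09, adjusted p = 0.198), Srebf2 likewise (-0.22 ± 0.10, adjusted p = 0.267), while Srebf1 (-0.08 ± 0.13) and Insig1 (-0.07 ± 0.07) overlapped. Of the 36 other lipid genes 2 rose and 4 fell, among them Npc1l1, the intestinal cholesterol importer, at 185 ± 16.7 against 258 ± 19.5 CPM (-0.49 ± 0.08, adjusted p = 0.00459). Npc1, which releases cholesterol from lysosomes, fell by 0.46 (adjusted p = 0.0164), Acly fell by 0.24 (adjusted p = 0.0396) and Abcg5 rose by 0.33 (adjusted p = 0.0268).

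Tumors of H2Bp53dIEC mice held less RNA of many sterol genes than control tissue. Of the 31 genes 13 fell and 3 rose, where 26.1% of the 17666 genes tested fell and 28.6% rose. Falls were found in 6 of 11 genes from squalene to cholesterol (Sqle, Tm7sf2, Msmo1, Hsd17b7, Ebp and Sc5d), in Hmgcs1 and Idi1 of the mevalonate arm, in Srebf2, Insig2 and Stard4 among regulators and carrier, and in Elovl6 and Scd1. Srebf1, Scap and Acsl3 rose. The median log2 fold change was -0.64 over the 31 genes and 0.068 over all genes tested. The falls of Hmgcs1, Tm7sf2, Sc5d, Insig2, Stard4 and Elovl6 were called under all 21 alternatives tried, while the call of Sqle was lost in 13 of them and those of Msmo1 and Idi1 in 5 each. With every library thinned to the depth of control 1320, 8 of the 30 members tested fell and 5 rose, where 23.9% of 8090 genes fell and 24.6% rose.

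Stard4, a soluble carrier that moves cholesterol between membranes, was at 120.0, 61.7, 67.7 and 144.6 CPM in the tumors of mice 1319, 1322, 1323 and 1349. It was at 297.5, 339.9, 395.0 and 352.5 CPM in the adjacent tissue of the same mice and at 515.4, 495.7, 452.3 and 482.4 in controls 1315, 1316, 1320 and 1321. The 3 groups did not overlap, with adjacent tissue between the others. The tumor mean was 0.202 times that of controls (-2.31 ± 0.26, adjusted p = 2.3e-05) and 0.284 times that of adjacent tissue (-1.81 ± 0.25, adjusted p = 0.000161).

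Insig2, which holds SREBP in the endoplasmic reticulum, was close together in the tumors, at 35.8, 39.0, 37.7 and 32.1 CPM. Its adjacent libraries were at 93.1, 82.8, 67.7 and 76.5 CPM and its controls at 83.2, 136.3, 171.3 and 120.2, so tumors were below all other tissue. The log2 fold change was -1.79 ± 0.20 against controls (adjusted p = 2.12e-05) and -1.15 ± 0.19 against adjacent tissue (adjusted p = 0.000517).

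Hmgcs1 gave the largest log2 fall against controls among the 31 genes, at 135.3, 60.4, 91.6 and 203.2 CPM in tumors. Controls were at 640.1, 726.8, 925.9 and 713.9 CPM, all above every tumor (-2.61 ± 0.46, adjusted p = 0.000505). Adjacent tissue was spread between 124.6 CPM in mouse 1323 and 609.7 in mouse 1349, with 288.1 and 350.2 in mice 1319 and 1322, so tumor and adjacent groups overlapped, yet in each of the 4 mice the tumor was the lower (-1.48 ± 0.44, adjusted p = 0.0155).

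Sc5d, the desaturase near the end of the pathway, was at 80.5, 45.4, 44.6 and 94.4 CPM in tumors, 115.6, 129.4, 113.2 and 123.3 beside them and 169.3, 174.6, 208.7 and 185.8 in controls. These groups were separate in that order (-1.47 ± 0.23, adjusted p = 0.000208 against controls; -0.86 ± 0.22, adjusted p = 0.00758 against adjacent tissue). Ebp, the sterol isomerase, was at 51.8, 39.1, 32.4 and 58.5 CPM in tumors and 82.6, 91.8, 104.4 and 85.5 in controls, without overlap (-0.99 ± 0.20, adjusted p = 0.00117). Its adjacent values of 62.4, 79.3, 51.0 and 65.4 CPM overlapped the tumors (-0.51 ± 0.19, adjusted p = 0.047).

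Acsl3 stood out by its direction. It was at 63.4, 61.8, 82.0 and 107.0 CPM in tumors, 75.5, 81.7, 113.7 and 102.3 in adjacent tissue and 37.6, 26.9, 29.4 and 24.8 in controls. Both tissues of the H2Bp53dIEC mice were above all controls, by 1.40 ± 0.22 (adjusted p = 0.000227) for tumors and 1.65 ± 0.22 (adjusted p = 0.0146) for adjacent tissue. Acsl3 shares 244 exonic bases with Utp14b on the same strand, and reads there cannot be told apart. In H2Bp53dIEC organoids the same gene was lower than in controls, as given above.

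The regulators split in tumors. Srebf1 was at 159.3, 197.3, 120.5 and 189.0 CPM against 57.2, 69.6, 112.4 and 66.1 in controls, all tumors being higher (1.18 ± 0.45, adjusted p = 0.0401). The call of Srebf1 was lost when the tumor of mouse 1319, 1322 or 1349 or control 1315, 1316 or 1321 was left out (adjusted p up to 0.111), and its difference was 1.36 ± 0.19 (adjusted p = 0.000258) without control 1320 and adjacent 1323. Srebf2 was at 156.4, 190.8, 140.3 and 225.5 CPM against 284.0, 292.5, 315.8 and 326.2, all tumors being lower (-0.77 ± 0.24, adjusted p = 0.0172). Scap was at 72.2, 66.9, 79.0 and 69.8 CPM, above 55.9, 47.4, 45.5 and 59.2 in controls (0.45 ± 0.13, adjusted p = 0.0123) and above 51.4, 56.8, 44.7 and 48.8 in adjacent tissue (0.51 ± 0.13, adjusted p = 0.00647). Insig1, at 119.3, 57.1, 57.2 and 135.2 CPM against 109.0, 118.4, 147.2 and 106.2, overlapped its controls and was not called (-0.36 ± 0.35, adjusted p = 0.395).

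**Figure D3:**
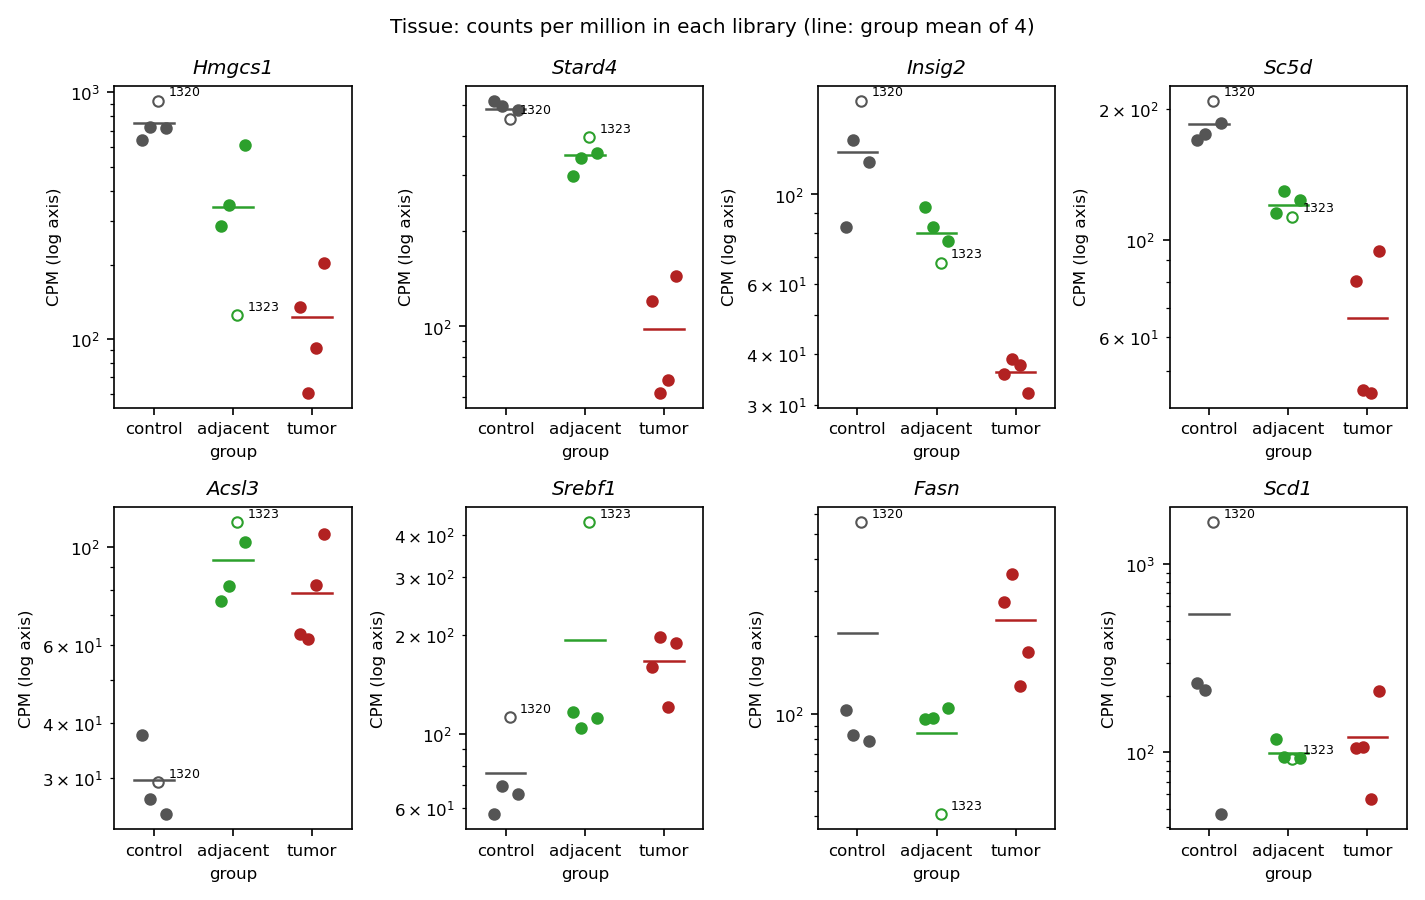
CPM of selected genes in each tissue library (points, log axes) by group, with the mean of 4 libraries as a line and open circles for control 1320 and adjacent 1323. Tumor libraries lie below all controls for Stard4, Insig2, Hmgcs1 and Sc5d and above them for Srebf1 and Acsl3, and the open control circle stands far above its group for Fasn and Scd1.

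Fasn and Scd1 depended on the control library of mouse 1320. Fasn was at 272.7, 349.6, 127.8 and 173.8 CPM in tumors, 95.3, 96.2, 40.6 and 105.8 in adjacent tissue, and 103.5, 82.7, 556.6 and 78.4 in controls, the high value being 1320. With all libraries it was not called against controls (0.25 ± 0.61, adjusted p = 0.746), and without 1320 it rose (1.38 ± 0.39, adjusted p = 0.0113). Scd1 was at 105.9, 106.2, 56.6 and 211.9 CPM in tumors and 234.4, 214.7, 1669.9 and 46.8 in controls, and the groups overlapped. Its fall of -2.14 ± 0.82 (adjusted p = 0.0423) became -0.47 (adjusted p = 0.452) without 1320, while Scd2, not called with all libraries (0.84, adjusted p = 0.0883), rose by 1.12 (adjusted p = 0.0421). With adjacent 1323 left out as well, 6 members rose and 14 fell, where 28.3% of 18191 genes rose and 25.8% fell. Acat2 then rose (0.84 ± 0.21, adjusted p = 0.0064, against 0.64 ± 0.35 and 0.137 with all libraries), and Nsdhl (-0.74 ± 0.26, adjusted p = 0.0323, against -0.70 ± 0.33 and 0.0871) and Dhcr7 (-0.63 ± 0.19, adjusted p = 0.0164, against -0.64 ± 0.26 and 0.055) fell. Library 1320 also had the highest sum of 10 adipocyte markers among controls, 701 CPM against 320 to 530, with 11 counts of Adipoq and 10 of Plin1. The part of adipose RNA in its values was not tested.

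Against the adjacent tissue of the same mice, 7 members fell in tumors and 1 rose, where 24% of genes tested fell and 23% rose. Those that fell were Hmgcs1, Hsd17b7, Ebp, Sc5d, Insig2, Stard4 and Elovl6, and the gene that rose was Scap. The count fallen was 11 without adjacent library 1323, where 3915 of 18214 genes fell, and 3 without adjacent library 1349, where 4130 of 18244 fell. It was 4 without the tumor of mouse 1322 or 1323, where 3768 of 18040 and 4103 of 18032 genes fell. Stard4, Insig2, Sc5d and Scap were called under each alternative tried. Hsd17b7 was at 25.98, 11.98, 21.66 and 35.5 CPM in tumors and 41.7, 37.2, 28.0 and 86.0 beside them, lower in all 4 mice though the groups overlapped (-1.02 ± 0.36, adjusted p = 0.0328). Srebf1 was at 117.1, 104.7, 438.2 and 111.8 CPM in adjacent tissue, the high value being mouse 1323, and was not called (-0.21 ± 0.43, adjusted p = 0.71). Without adjacent 1323 its difference changed sign, to 0.58 ± 0.22 (adjusted p = 0.0576). Srebf2 adjacent values were 229.6, 277.4, 134.7 and 329.1 CPM, the low value being mouse 1323, and the groups overlapped (-0.45 ± 0.24, adjusted p = 0.148). Without adjacent 1323 Srebf2 fell in tumors (-0.65 ± 0.19, adjusted p = 0.0161), as did Sqle (-0.83 ± 0.22, adjusted p = 0.0106, against -0.50 ± 0.40 and 0.325 with all libraries) and Dhcr7 (-0.49, adjusted p = 0.0463). With control 1320 also left out, Srebf1 (0.58 ± 0.18, adjusted p = 0.0267) and Fasn (1.21 ± 0.31, adjusted p = 0.0105) rose beside Scap, and 9 members fell, where 20.8% of genes rose and 21.5% fell. Insig1 adjacent values were 65.7, 73.9, 45.1 and 132.0 CPM and overlapped the tumors (0.22 ± 0.34, adjusted p = 0.628).

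With the mouse as a block, in a fit that also left out the control tissue, 3 members rose and 5 fell in tumors against adjacent tissue. In that fit 3113 of 17114 genes rose and 3234 fell. Fasn, higher in the tumor of each of the 4 mice, was at 1.45 ± 0.61 in the fit of all tissue (adjusted p = 0.0678). It rose by 1.41 ± 0.23 in the block fit (adjusted p = 0.0111), but also by 1.43 ± 0.39 with only these 2 groups and no block (adjusted p = 0.0178) and by 1.51 ± 0.58 in DESeq2 (adjusted p = 0.0221). Ebp and Elovl6 were called neither with the block (adjusted p = 0.0672 and 0.079) nor with the 2 groups alone (adjusted p = 0.0849 and 0.0956). Mvd rose with the block (0.49 ± 0.13, adjusted p = 0.0335) and was at 0.48 ± 0.29 with the 2 groups alone (adjusted p = 0.216).

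Adjacent tissue against control tissue gave 1 member risen, Acsl3, and 0 fallen in edgeR, where 0.792% of genes tested rose and 0.277% fell. At an unadjusted p under 0.05 there were 2 higher and 7 lower, beside 10.6% and 6.88% of all genes. This lean depended on control 1320 and adjacent 1323. Without both there were 4 higher and 1 lower at that threshold, where 1489 and 902 of 18191 genes were. With all libraries, DESeq2 called 2 risen (Srebf1 and Acsl3) and 1 fallen (Scd1), beside 3.97% and 1.66% of genes with an adjusted p. Log2 fold changes, again with all libraries, were below 0 for 25 of the 31 genes, with a median of -0.43 beside 0.043 over all genes. Hmgcs1 (-1.13 ± 0.44, adjusted p = 0.213), Sc5d (-0.61 ± 0.23, adjusted p = 0.191), Ebp and Stard4 lay below controls without overlap but were not called. Srebf1 was at 1.39 ± 0.45 (adjusted p = 0.139), and at 0.60 (adjusted p = 0.253) without adjacent library 1323. Srebf2 (-0.33 ± 0.24, adjusted p = 0.517), Insig1 (-0.58 ± 0.35, adjusted p = 0.416) and Fasn (-1.20 ± 0.62, adjusted p = 0.343) overlapped controls, and Fasn was at 0.17 ± 0.32 without control 1320 and adjacent 1323 (adjusted p = 0.867). With control 1320 and adjacent 1323 both left out, Acsl3 was at 1.54 and missed the threshold (adjusted p = 0.0511), leaving 0 risen and 0 fallen. Its log2 fold change stayed between 1.48 and 1.82 over the alternatives. Calls over all genes became few when a control was left out, with 2 of 18201 genes risen and 0 fallen without control 1316 and 0 and 0 without control 1321, and Acsl3 was then not called either (adjusted p = 0.0843 and 0.0986).

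The pieces of tissue differed in markers of cell types and of position along the gut. The labels do not say where along the small intestine a piece was taken. The sum of 6 markers of the distal small intestine was 46.4 to 270 CPM in tumors, 1008 to 12570 beside them and 9607 to 15861 in controls. That of 8 proximal markers was 157 to 1874, 116 to 1580 and 116 to 164 in the same order. Position and loss of enterocyte products cannot be told apart by these sums. The 10 enterocyte markers summed to 860 to 19418 CPM, 29898 to 123560 and 27675 to 36580 in the same order, and the 8 general epithelial markers to 5906 to 9856, 12764 to 20704 and 17490 to 20526. Stem cell markers went the other way, at 914 to 1180, 102 to 211 and 146 to 259 CPM, as did 6 fibroblast markers, at 1285 to 10567, 241 to 855 and 450 to 746. The lowest distal sum and highest enterocyte sum of adjacent tissue were both library 1323. The part of these shifts in the changes of the sterol genes was not tested.

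Of the other lipid genes, all 38 tested, 7 rose and 15 fell in tumors against controls, beside 28.6% and 26.1% of all genes tested. Erlin1, which takes part in the sterol-triggered breakdown of endoplasmic reticulum proteins, was at 28.6 ± 5.15 against 150 ± 15.8 CPM (-2.39 ± 0.16, adjusted p = 1.93e-06), and its partner Erlin2 fell by 1.31 (adjusted p = 1.7e-05). Soat1, which esterifies cholesterol for storage, was at 104 ± 18.9 against 14.3 ± 2.49 CPM (2.78 ± 0.20, adjusted p = 2.31e-06), and Acsl4 at 85.4 ± 13.2 against 12.3 ± 4.86 (2.64 ± 0.26, adjusted p = 1.02e-05). Against adjacent tissue 7 rose and 16 fell, beside 23% and 24% of all genes tested. There Erlin1 was at -1.93, Soat1 at 2.01, Acsl4 at 2.04 and Mylip, a ubiquitin ligase of lipoprotein receptors, at -1.72 (adjusted p = 7.91e-06, 1.48e-05, 5.29e-05 and 0.000204). In adjacent tissue against controls, where 0.792% of all genes tested rose and 0.277% fell, the gene called was Abca1, a cholesterol exporter. It was at 94.3, 39.0, 215 and 41.9 CPM in mice 1319, 1322, 1323 and 1349 against 11.5 to 21.4 in controls. All adjacent libraries were higher, that of mouse 1323 most (2.71 ± 0.53, adjusted p = 0.0345). The difference was 1.97 ± 0.36 without adjacent 1323 (adjusted p = 0.0352) and 2.03 ± 0.39 without control 1320 as well, where it missed the threshold (adjusted p = 0.0657).

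In crypts of mice of 52 weeks, 1 of the 31 genes was called between H2BdIEC and control mice. It was Fdft1, the squalene synthase, which fell, and 0 rose in edgeR, where 4.87% of the 14596 genes tested fell and 5.16% rose. At an unadjusted p under 0.05 there were 6 lower and 1 higher, beside 14.5% and 14.3% of all genes. DESeq2 called 3 fallen (Hmgcs1, Fdft1 and Lbr) and 0 risen, beside 7.99% and 9.46% of genes with an adjusted p. Log2 fold changes, nearly all of members not called, were below 0 for 25 genes, all 8 of the mevalonate arm and all 6 fatty acid genes included, with a median of -0.15 beside -0.005 over all genes.

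Fdft1 was at 28.4, 23.4, 30.6 and 32.2 CPM in H2BdIEC crypts 1 to 4 and at 45.1, 35.7, 40.0 and 34.5 in control crypts 1 to 4. All H2BdIEC libraries were lower (-0.44 ± 0.12, adjusted p = 0.049), close to the threshold. The call was lost when control 1, control 3 or any H2BdIEC library was left out (adjusted p up to 0.127). The gene shares exonic bases with Ctsb on the opposite strand. Hmgcs1 was at 145.0, 127.3, 164.5 and 167.7 CPM against 230.5, 173.5, 197.7 and 182.1 (-0.37 ± 0.13, adjusted p = 0.0831), and Lbr, a sterol reductase that also anchors chromatin at the nuclear envelope, was at 102.9, 62.4, 91.3 and 89.4 against 142.6, 112.1, 127.5 and 113.2 (-0.52 ± 0.15, adjusted p = 0.0505). Both were lower in each H2BdIEC library and missed the threshold.

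The regulators overlapped between crypt groups. Srebf1 was at 95.8, 91.8, 71.5 and 89.0 CPM against 99.1, 101.3, 109.1 and 83.8 (-0.18 ± 0.12, adjusted p = 0.347), and Srebf2 at 108.2, 94.9, 83.5 and 83.3 against 126.1, 94.2, 132.3 and 81.6 (-0.23 ± 0.16, adjusted p = 0.365). Insig1 was at 91.3, 54.4, 85.3 and 93.2 CPM against 60.7, 71.0, 69.5 and 69.1 (0.26 ± 0.15, adjusted p = 0.283), higher than all controls in 3 of the 4. Fasn was at 205.5, 142.6, 147.3 and 162.0 CPM against 196.7, 158.8, 192.2 and 154.0 (-0.09 ± 0.14, adjusted p = 0.694).

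The desaturases varied most among control crypts. Scd1 was at 11.05, 2.447, 10.58 and 1.466 CPM in controls and 3.63, 3.97, 1.87 and 2.60 in H2BdIEC (-1.09, adjusted p = 0.312). Scd2 was at 124.4, 30.95, 82.8 and 43.7 CPM in controls and 35.6, 31.1, 28.1 and 45.7 in H2BdIEC (-1.005 ± 0.43, adjusted p = 0.173). Controls 1 and 3 were high in both genes, whereas controls 2 and 4 lay among the H2BdIEC libraries.

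**Figure D4:**
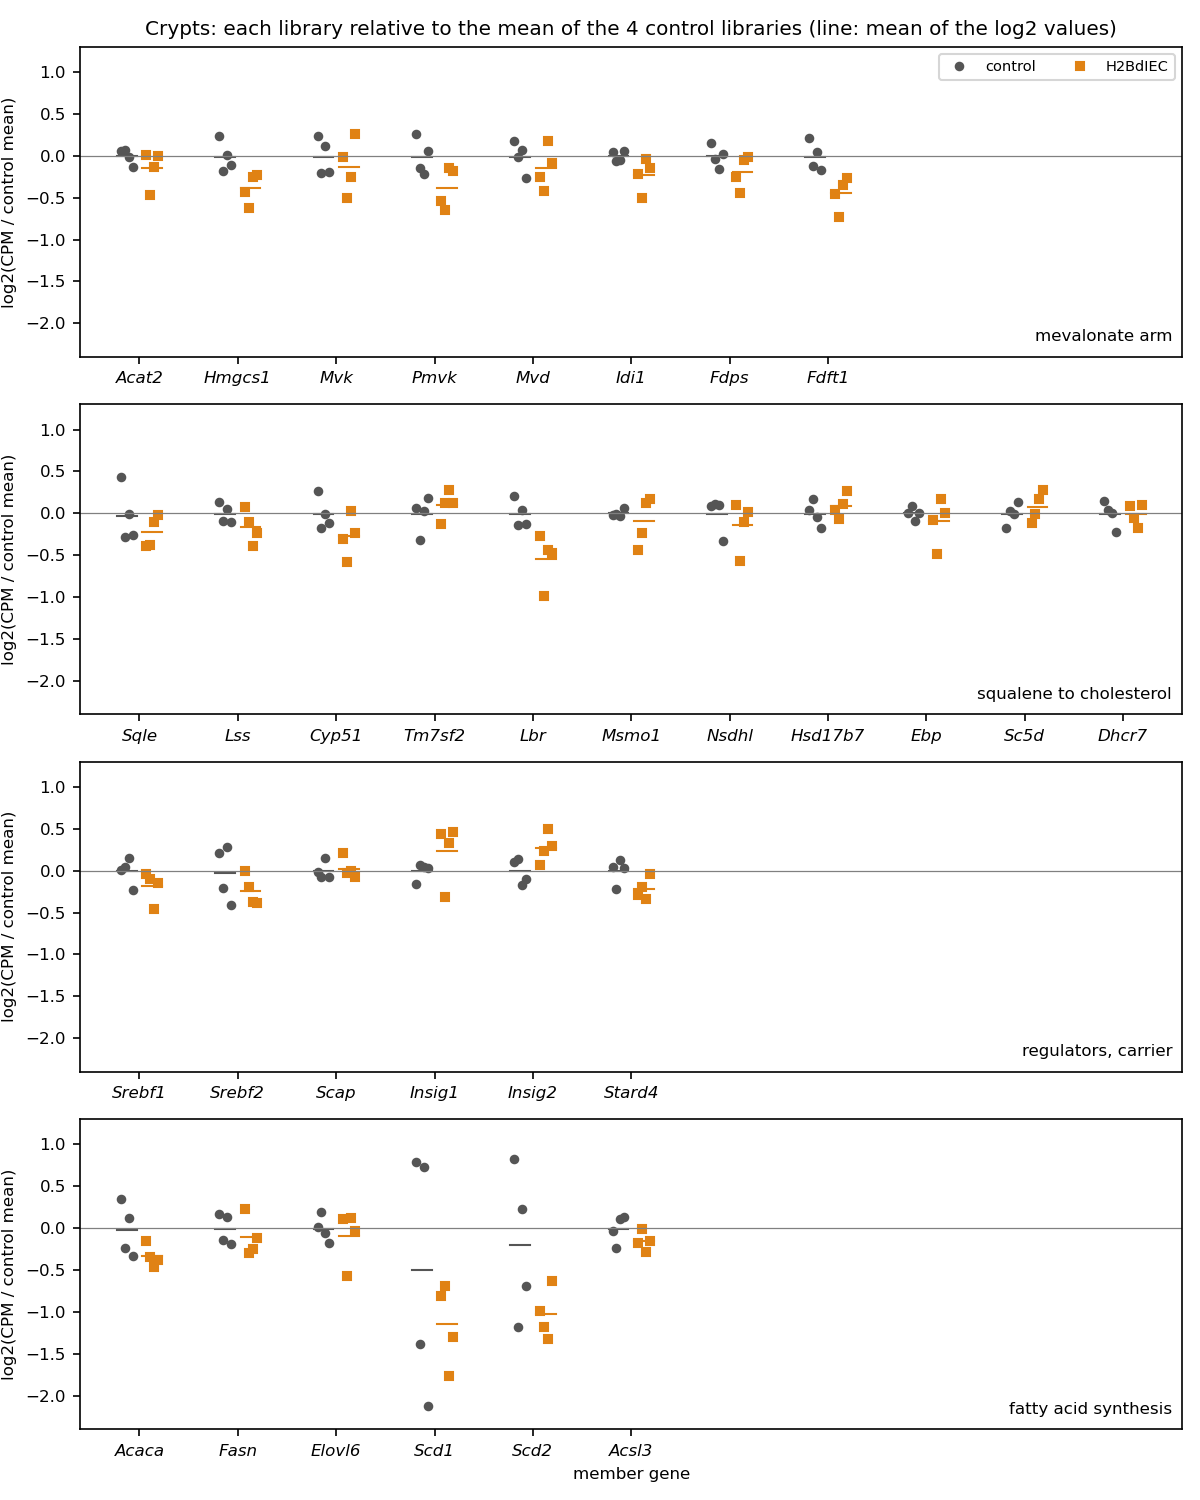
Each crypt library (point) as log2 of its CPM over the mean CPM of the 4 control libraries, by role, where short lines are the mean of the log2 values of a group and so need not lie at 0 for controls. H2BdIEC squares lie below all control circles for Fdft1, Hmgcs1 and Lbr, and the control circles of Scd1 and Scd2 fall into a high and a low pair.

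The crypt groups also differed in cell markers and library measures. The 8 proximal small intestine markers summed to 2276.6 to 3309.6 CPM in H2BdIEC and 762 to 1701 in controls, the 10 enterocyte markers to 34606 to 46276 and 23518 to 35476, the 6 stem cell markers to 281 to 419 and 738 to 856, and the 6 Paneth cell markers to 1612 to 2578 and 3655 to 9792. Mitochondrial genes took 9.30 to 15.7% of counts in H2BdIEC and 4.33 to 10.4% in controls. The part of these differences in the crypt results was not tested. Of 37 other lipid genes tested, 1 rose and 3 fell, beside 5.16% and 4.87% of all genes tested. Fads2 was at 34.4 ± 8.13 against 63.7 ± 0.484 CPM (-0.89 ± 0.14, adjusted p = 0.00646), Elovl5, a fatty acid elongase, fell by 0.64 (adjusted p = 0.0309), and Acss2, which makes acetyl-CoA from acetate, fell by 0.42 (adjusted p = 0.046). Pcyt2, of phosphatidylethanolamine synthesis, rose by 0.60 (adjusted p = 0.0291).

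The effect of Rnaseh2b deletion in crypts was then set against its effect in organoids, as an interaction over 14 libraries. Of the 31 genes 1 was called, Idi1, with a more negative effect in crypts, and 0 were called with a more positive one, where 1.72% and 2.3% of the 17163 genes tested were. At an unadjusted p under 0.05 there were 4 and 0, beside 9.48% and 10.3% of all genes, and DESeq2 called 2 (Hmgcs1 and Idi1) and 0, beside 4.03% and 4.09%. Idi1 differed by -0.57 ± 0.15 (adjusted p = 0.0401), from 53.5, 43.5, 60.2 and 56.0 CPM against 64.0, 59.2, 59.9 and 64.6 in crypts to the higher H2BdIEC values in organoids given above. The organoid files hold an additional gene, Gm48574, on the opposite strand of Idi1, so levels of Idi1 are not compared between the sets. The call was lost when any organoid library, crypt control 1, 3 or 4, or H2BdIEC crypt 4 was left out (adjusted p up to 0.118). Hmgcs1 was next (-0.62 ± 0.18, adjusted p = 0.0614), while Srebf1 (-0.07 ± 0.21), Srebf2 (0.00 ± 0.23), Insig1 (0.35 ± 0.20) and Fasn (0.15 ± 0.20) were not called. Among 37 other lipid genes tested, the effect was more positive in crypts for Mlxipl, the carbohydrate-responsive factor ChREBP (1.05 ± 0.24, adjusted p = 0.0235), and Pcyt2 (0.84 ± 0.20, adjusted p = 0.0284), and more negative for Fads2 (-0.82 ± 0.21, adjusted p = 0.0338).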

How the data were processed

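RNA was prepared with RNeasy Mini kits and QIAshredder columns and 500 ng of it went into each TruSeq stranded mRNA library, per the labels' protocols. The authors deposited HTSeq counts, 1 table of raw read counts per gene for each of 29 libraries. The submitters' processing notes name cutadapt 1.5 and 1.9, Trimmomatic 0.36, TopHat2 2.0.14, HTSeq (no version) and the build GRCm38, with no settings. Whether counting used strand is not given in the sources used here.

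Symbols came from the GENCODE M21 annotation. The members and gene lists were chosen with earlier results of these data known. Crypt (47729 genes), tissue (49585) and organoid (52550) tables were fitted separately with edgeR 4.0.16 in R 4.3.3 (filterByExpr, TMM, robust quasi-likelihood, 1 coefficient per group) with Benjamini-Hochberg adjustment over each set's tested genes. The interaction used 14 libraries together. CPM use TMM factors within a set, and CPM per kilobase TMM factors over 29 libraries and the union of exons. No 2 libraries of a group held identical counts. Values were printed for the 6 called members with the smallest p per comparison and for Srebf1, Srebf2, Insig1 and Fasn, and for up to 4 called genes of the 38 others; values of further members, and of Scd1 and Scd2 in every library, were added after they had been seen.

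Tumor and adjacent libraries of 1 number come from the same mouse. Correlations of their deviations from the group means were 0.144 (1349), -0.178 (1323), 0.124 (1322) and 0.0600 (1319). On simulated counts the test recovered 74.7% of genes changed by a log2 fold of 1 in crypts, 11.1% in tissue and 76.8% in organoids. Only H2BdIEC against control was simulated in crypts and organoids, and only adjacent against control in tissue, with few genes changed. These rates therefore do not describe the tumor or H2Bp53dIEC organoid comparisons, nor smaller folds. DESeq2 1.42.0, other scalings, filters, equal depth, the mouse block and leaving out libraries were tried as alternatives. Figures were drawn with matplotlib 3.10.9.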

Additional observations from a re-analysis of the deposited data

Results flagged for a closer look

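Single libraries stood far from their group of 4 in 13 of the 155 gene and group combinations examined. A rate of about 1 in 20 (5%) would hold for independent, normally distributed values. Genes of 1 library are not independent, and most of the 13 came from control 1320 and adjacent 1323. In the control tissue of mouse 1320, Acat2 was at 45.5 CPM (others 20.6 to 22.3), Lss at 80.3 (42.1 to 48.3), Acaca at 136 (47.9 to 59.4), Fasn at 557 (78.4 to 103) and Scd1 at 1669.9 (46.8 to 234), all high. In the adjacent tissue of mouse 1323, Mvk was at 19.1 CPM (36.3 to 37.9), Acaca at 24.2 (48.1 to 52.6) and Fasn at 40.6 (95.3 to 106), all low, while Srebf1 was high at 438 (105 to 117). Acaca and Fasn thus lay apart in both libraries, in opposite directions. The others were Acat2 in the tumor of mouse 1323, at 25.9 CPM (40.3 to 43.0), Lbr in adjacent tissue 1349, at 95.2 (58.3 to 60.2), Scd1 in adjacent tissue 1319, at 118 (92.7 to 94.1), and Nsdhl in control crypt 4, at 12.9 (17.3 to 17.6).

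The effect of Rnaseh2b deletion differed between crypts and organoids for Idi1, by -0.57 on the log2 scale in edgeR's interaction test.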

How the results depend on the processing

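Of the members called, 12 of 13 kept their call under every alternative in H2Bp53dIEC against H2BdIEC organoids (Mvd did not), 8 of 17 against control organoids, 8 of 16 in tumors against controls, 4 of 8 in tumors against adjacent tissue, and 0 of 1 each in crypts, adjacent tissue and the interaction. Members fallen in crypts numbered 1 in the main fit (711 of 14596 genes). The number was 0 with DESeq2 size factors (653 of 14596) or without robust fitting (699 of 14596). It was 2 with upper-quartile factors (754 of 14596), no filter (820 of 25877) or a minimum of 1 CPM (686 of 13152). DESeq2 gave 3 (7.99% of genes). The interaction (1 fallen, 296 of 17163 genes) gave 2 with upper-quartile factors (346 of 17163) or DESeq2 (4.03%). Without a filter it gave 0 (228 of 29201). Adjacent against control tissue (1 risen, 0 fallen) gave 2 and 1 in DESeq2, where 3.97% and 1.66% of genes were called. It gave 1 fallen when only the 2 groups were fitted (127 of 16391 genes). Without control 1320 and adjacent 1323, an alternative chosen after seeing the data, 0 members rose (29 of 18191 genes). Tumors against controls (3 risen, 13 fallen) gave 5 and 8 at equal depth, where 1993 and 1936 of 8090 genes rose and fell. Without those 2 libraries they gave 6 and 14 (5156 and 4699 of 18191 genes). Without a filter they gave 3 and 9 (5729 and 4259 of 33400 genes). Tumors against adjacent tissue (1 risen, 7 fallen) gave 2 risen in DESeq2 (4514 of 17594 genes). They gave 2 and 4 with only the 2 groups, where 3295 and 3541 of 17114 genes rose and fell. At equal depth they also gave 2 and 4 (1466 and 1663 of 8090 genes), and Ebp turned to 0.0546 (log2). Without those 2 libraries 3 members rose (3775 of 18191 genes), and without a filter 3 fell (3585 of 33400). H2Bp53dIEC against control organoids (15 and 2) gave 19 and 3 with only the 2 groups, where 3513 and 3599 of 15440 genes rose and fell. With upper-quartile factors 18 members rose (2971 of 15701 genes, beside 2621 in the main fit). H2BdIEC organoids (0 and 0) gave 1 risen (Hmgcs1) and 1 fallen (Fasn) without a filter, where 620 and 874 of 27095 genes were called. Equal depth leaves few counts per gene. Calls over all genes also changed between settings and with a replicate left out. In crypts, for example, 711 genes fell in the main fit, 1117 in DESeq2 and 204 without control 3. The cause of the other shifts was not tested.

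Leaving out a replicate gave 0 to 1 risen and 0 to 3 fallen in crypts, 0 to 1 risen in adjacent tissue, 2 to 5 risen and 9 to 14 fallen in tumors against controls, 1 to 2 risen and 3 to 11 fallen against adjacent tissue, 0 to 1 risen in H2BdIEC organoids, 10 to 15 risen and 2 to 3 fallen in H2Bp53dIEC against H2BdIEC organoids, 8 to 19 risen and 1 to 3 fallen against controls, and 0 to 2 fallen in the interaction. Over all genes, the same fits gave 277 to 991 risen and 201 to 848 fallen in crypts. They gave 0 to 244 risen in adjacent tissue and 172 to 547 risen in H2BdIEC organoids. Tumors had 4272 to 5322 risen and 4124 to 4819 fallen against controls. Against adjacent tissue these were 3588 to 4194 and 3768 to 4283. H2Bp53dIEC organoids had 1431 to 2667 and 1551 to 2816 against H2BdIEC, and 1834 to 3594 and 1788 to 3709 against controls. The interaction gave 91 to 462 fallen.

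With the mouse as a replicate block and the control tissue left out, tumors against adjacent tissue had 3 risen and 5 fallen members. In organoids the letters A, B and C pair nothing by the labels (correlations 0.00162, -0.212 and 0.112), and the block on them gave 0 risen and 0 fallen. Control 1320 had 401365 counts. Without it, 37 genes rose and 16 fell of 18247 in adjacent against control tissue, beside 140 and 49 of 17666 with it. How far its low depth limits the tests on control tissue was not tested.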
